A study of Mus musculus with 12 samples.

Results

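Alveolar fibroblasts are the lipid-handling, matrix-producing fibroblasts of the gas-exchange wall of the lung. Their nuclei were taken here from single-nucleus RNA sequencing of 12 mouse lungs by the unique molecular identifiers (UMIs) of named genes. A barcode with 200 to 6000 genes and at most 5% of UMIs from mitochondrial genes was chosen when it held at least 3 UMIs over at least 2 of the 7 genes Itga8, Scube2, Adra1a, Bmper, Fgfr4, Slc7a10 and Wnt2, and more UMIs from these than from 11 genes of other classes (Pi16, Scara5, Agtr1b, Itgbl1, Cthrc1, Postn, Myh11, Rtkn2, Scel, Kit and Ednrb). This took 7479 of the 47319 nuclei that passed the filters (15.8%), with 38304189 UMIs among them. The levels of these 18 genes were used to choose the nuclei, so they are given as a description and were not tested.

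The mice were wild-type C57BL/6J, instilled through the trachea at 7 weeks of age with PBS or with bleomycin, a chemotherapy drug whose lung injury is followed by scarring. NVP-BHG712, an inhibitor of the receptor tyrosine kinase EphB4, or its vehicle (polyethylene glycol with N-methylpyrrolidone) was then given by mouth each day for 5 days, starting at day 5, and dosing had ended before collection. Lungs were collected at day 14 and frozen, and nuclei were sorted on DAPI alone, with no selection for fibroblasts. The 4 groups of 3 mice, 1 library each, are called PBS_vehicle, PBS_NVP, Bleo_vehicle and Bleo_NVP, and libraries are numbered within a group as in their labels. The comparisons ask how these nuclei differed after bleomycin, after NVP-BHG712 in bleomycin-treated lungs, and after NVP-BHG712 alone.

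In the adult lung, alveolar fibroblasts lie beneath the epithelium, hold retinoid and lipid droplets, lay down elastin and basement membrane, and send growth factor signals such as FGF10 to type II alveolar cells. After injury, fibroblasts of this lineage are known to lose part of this programme, and fibroblasts with a matrix-producing, SPP1- or CTHRC1-marked state appear. EphB4 is a receptor for the membrane-bound ligand ephrin-B2.

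The chosen nuclei carried genes of the class they are named for, and also genes of some other marker lists. Over all libraries together, Npnt (nephronectin, an integrin ligand of the alveolar basement membrane) stood at 1149.5 CPM in them, where CPM is a gene's UMIs scaled to a common total. Levels of single genes in the chosen nuclei of a library or group, and their summed marker lists, are adjusted CPM. For these, library sizes were scaled by edgeR's trimmed mean factors. Levels and sums in the other nuclei, and values over all libraries together, are unadjusted CPM. Chosen and other levels are therefore not on quite the same scale. The same gene stood at 223 CPM in 434 nuclei taken as adventitial and 207 CPM in 640 taken as peribronchial fibroblasts by like rules. The sodium channel gene Scn3a stood at 492 CPM against 4.12 and 80.3 CPM, and Fat3, a large protocadherin, at 1161 against 41.2 and 131 CPM. Tcf21, a transcription factor of lipid-storing fibroblasts, stood at 48.4 CPM against 2.75 and 14.4 CPM. Bmp5 stood at 705 CPM against 832 CPM in the peribronchial nuclei, and Slit2 at 2957 against 1369 CPM. Bleo_vehicle 3 gave 1861 of the 7479 chosen nuclei, 196 of the 434 adventitial and 222 of the 640 peribronchial ones, so these values over all libraries mix class with group and were not tested. A summed list of 10 general fibroblast genes lay between 2086 and 3198 CPM in the chosen nuclei of every library and between 155 and 614 CPM in the other nuclei. The 10 smooth muscle genes were also higher in the chosen nuclei, at 904 to 2291 CPM against 301 to 542 CPM. The 10 mesothelial genes summed to 90 to 257 CPM against 27.5 to 172 CPM. The 10 adventitial fibroblast genes summed to 61.8 to 159 CPM in the chosen nuclei and 106 to 290 CPM in the others.

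The choice was less deep in Bleo_vehicle. The median number of UMIs from the 7 genes in a chosen nucleus was 5, 5 and 13 in Bleo_vehicle 1, 2 and 3 and 13 to 26.5 in the other 9 libraries. Itga8, an integrin subunit, had a UMI in 80.4% to 99.4% of the chosen nuclei of each library and in 6.08% to 12.3% of the other nuclei, a contrast that the rule itself sets. It stood at 617, 1053 and 1358 CPM in Bleo_vehicle and at 1936 to 3624 CPM in the other libraries. Just inside the threshold, 377 nuclei (5.04%) had exactly 3 UMIs from the 7 genes and 71 led by 1 UMI over the other 11 genes. Just outside it, 431 nuclei had 2 UMIs over 2 genes, 444 had at least 3 UMIs from 1 gene, and 533 had at least as many UMIs from the other 11 genes. The number chosen ran from 102 nuclei in Bleo_vehicle 1 to 1861 in Bleo_vehicle 3, and their UMIs from 379446 to 10706163 in the same libraries. Nuclei of 1 library are not replicates, so gene tests below compare counts summed per mouse, and shares are compared over mice.

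Outside Bleo_vehicle, most libraries resembled a library with the same number in another group more than those of their own group. Over 7604 genes, the log2 profiles of the chosen nuclei of PBS_vehicle 1 and PBS_NVP 1 correlated at r = 0.992, those of PBS_vehicle 2 and PBS_NVP 2 at 0.979, those of PBS_NVP 2 and Bleo_NVP 2 at 0.981, and those of PBS_NVP 3 and Bleo_NVP 3 at 0.975. These correlations are across genes, which are not independent, and carry no test. For 8 of the 12 libraries the nearest profile was in another group, and the other 4 were Bleo_NVP 1 and the 3 of Bleo_vehicle. In Bleo_vehicle, libraries 2 and 3 correlated at 0.975, and library 1, with the fewest nuclei, reached 0.879 with its nearest. Libraries shared 324 barcodes in all. Bleo_NVP libraries all carried run number 4, PBS libraries run numbers 1 to 3, and Bleo_vehicle libraries a batch number of 6 or 7, so for each contrast with a bleomycin group the run and the group cannot be told apart.

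**Figure D1:**
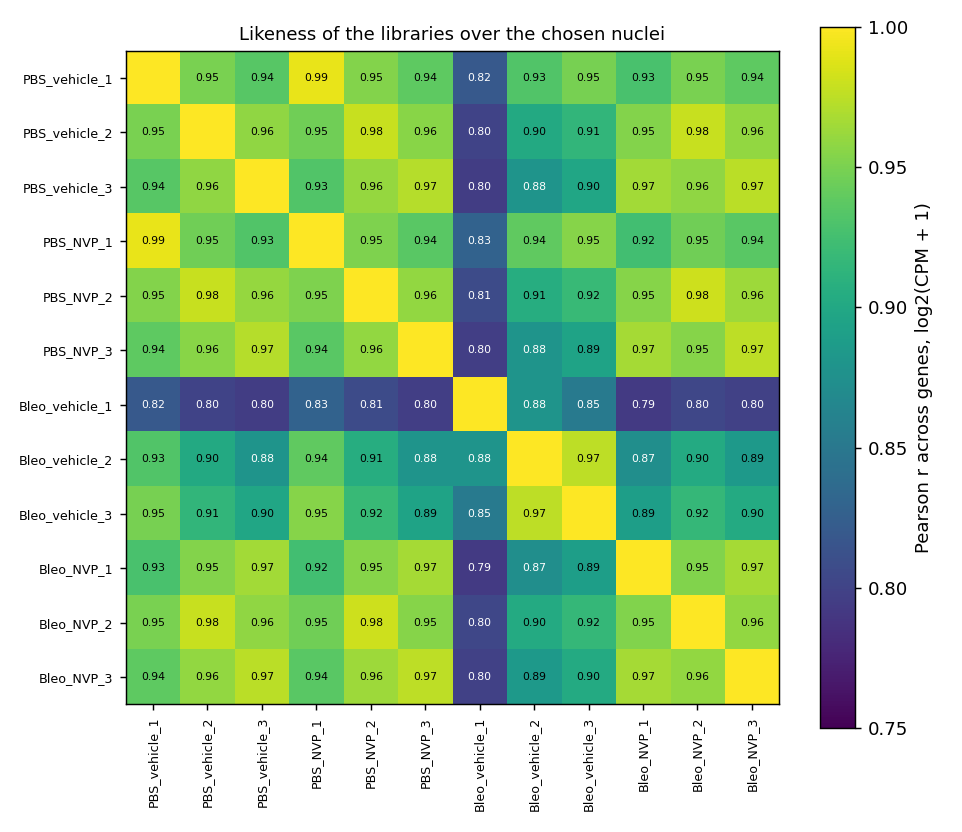
Likeness of the 12 libraries. Each cell is Pearson's r between the log2(CPM + 1) profiles of the chosen nuclei of a pair of libraries over 7604 genes. PBS_vehicle 1 and PBS_NVP 1 reach 0.992, and Bleo_vehicle 1 stands apart from all other libraries.

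Other traces moved with Bleo_vehicle too. Mitochondrial UMIs had a median share of 1.1%, 0.707% and 0.435% in the chosen nuclei of Bleo_vehicle 1, 2 and 3 and at most 0.0127% elsewhere. The summed level of 10 type II alveolar genes in the chosen nuclei lay between 447 and 1645 CPM in Bleo_vehicle, 182 and 519 CPM in PBS_vehicle, 143 and 499.7 CPM in PBS_NVP, and 136 and 165 CPM in Bleo_NVP. The 10 type I alveolar genes summed to 392 to 671 CPM in Bleo_vehicle, and to at most 389 CPM elsewhere. The 10 interstitial macrophage or monocyte genes summed to 141 to 260 CPM in Bleo_vehicle and to at most 66.2 CPM elsewhere. The 10 alveolar macrophage genes summed to 77.4 to 194 CPM in Bleo_vehicle, at most 95.5 CPM in the PBS groups and 12.0 to 22.5 CPM in Bleo_NVP. The 10 capillary endothelial genes, in contrast, reached 936 CPM in PBS_vehicle 1 and 903 CPM at most in Bleo_vehicle. Over all 18 marker lists measured, 3 genes had no UMI in any chosen nucleus, Ccl21a and Nts of the lymphatic endothelial list and Klrb1c of the T or NK cell list. The part of these traces in the results below was not tested beyond the values given.

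Alveolar fibroblast nuclei made up a smaller share of all nuclei in Bleo_vehicle than in Bleo_NVP, with 3 mice in each, and the design could not carry the difference past a threshold of 0.05. Their share was 4.49%, 9.87% and 14.02% in Bleo_vehicle 1, 2 and 3. It was 20.9%, 13.8% and 22.6% in PBS_vehicle, 20.02%, 17.5% and 20.4% in PBS_NVP, and 20.95%, 17.5% and 20.2% in Bleo_NVP. All 3 Bleo_vehicle shares lay below all 3 Bleo_NVP shares, while Bleo_vehicle 3 lay above PBS_vehicle 2.

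Bleo_NVP exceeded Bleo_vehicle by 10.1 percentage points (two-sided exact permutation p = 0.1, the smallest that 3 against 3 allows, adjusted p = 0.4 over 4 comparisons). Bleo_vehicle lay 9.66 points below PBS_vehicle (exact permutation p = 0.2, adjusted p = 0.4). NVP-BHG712 in PBS-treated lungs moved the mean share by 0.217 points (exact permutation p = 1, adjusted p = 1), and Bleo_NVP and PBS_NVP differed by 0.219 points (exact permutation p = 0.7, adjusted p = 0.933). The nuclei were also thinned to 1000 UMIs each, which leaves out those with fewer, 1034, 2365 and 847 in Bleo_vehicle 1, 2 and 3 and 54 to 771 in the other libraries. Of the nuclei kept, the share was 1.94%, 6.04% and 7.64% in Bleo_vehicle, and it was 13.1% to 21.0% in the other 3 groups, so that Bleo_vehicle then overlapped none of them. Bleo_vehicle and PBS_vehicle also did not overlap with doublets left out or with the stricter choosing rule, and overlapped with nuclei limited to 500 or more UMIs and at most 1% of them mitochondrial. These shares follow how many nuclei of every other kind each library held, and the threshold on UMIs of 7 genes whose levels differed between groups.

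**Figure D2:**
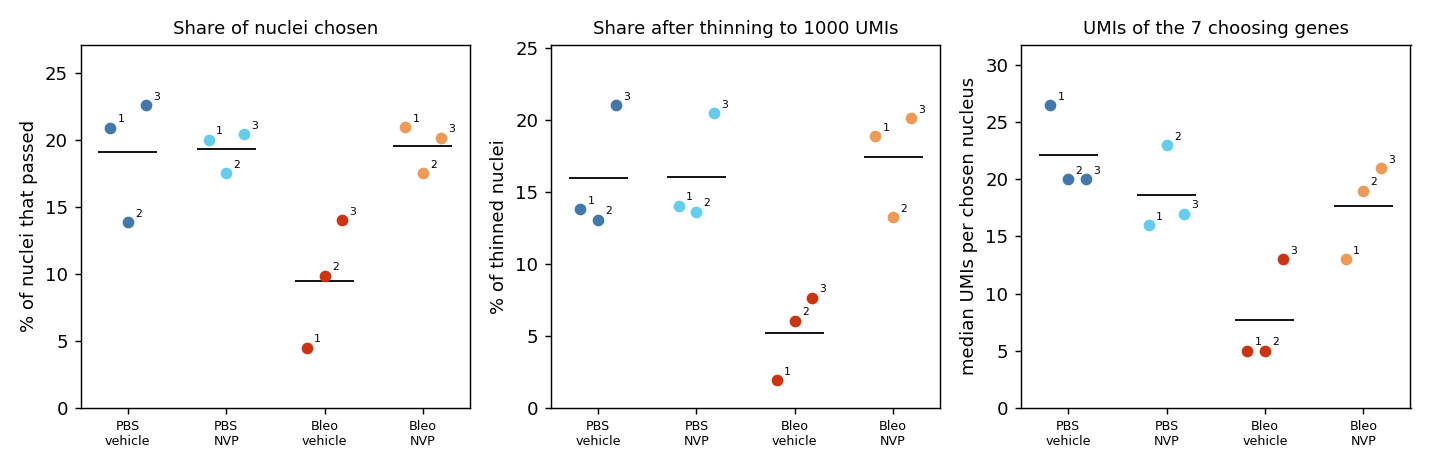
Alveolar fibroblast nuclei in 12 mice of 4 groups: their share of all nuclei that passed the filters, in percent (left), the share among nuclei with at least 1000 UMIs, each thinned to that number (middle), and the median number of UMIs from the 7 choosing genes in a chosen nucleus (right). Points are mice with their replicate number and lines are group means (n = 3). Bleo_vehicle runs from 4.49% to 14.02% as deposited and from 1.94% to 7.64% after thinning.

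After bleomycin with vehicle, 6 of 22 activated fibroblast genes and 2 of 18 inflammatory genes rose. Of 24 alveolar fibroblast identity genes 1 fell (4.17%), near the share called over all genes. Of 10481 genes tested in the summed counts, 179 rose and 89 fell in Bleo_vehicle against PBS_vehicle, which is 2.56% of the genes (edgeR's quasi-likelihood test, Benjamini-Hochberg adjusted p under 0.05), and the median log2 fold change of all genes tested was 0.00. At an unadjusted p under 0.05 there were 1934. Among the genes that rose, 24 were over 10 times higher in the other nuclei than in the chosen ones, and all 13 mitochondrial genes tested rose. The ribosomal protein genes Rps12, Rps20, Rpl26 and Rps14 rose too. The count fell to 61 without PBS_vehicle 2, 69 without PBS_vehicle 3, 72 without Bleo_vehicle 2 and 161 without Bleo_NVP 3, and rose to 566 without PBS_vehicle 1 and 466 without PBS_NVP 1. It was 306 without Bleo_vehicle 1.

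With NVP-BHG712 in bleomycin-treated lungs, 7 of 22 activated fibroblast genes fell, 6 of 24 identity genes rose and 3 of 18 inflammatory genes fell. In Bleo_NVP against Bleo_vehicle 282 genes rose and 526 fell, 7.71% of the 10481 tested, with a median log2 fold change of -0.04 over all genes, and 2572 had an unadjusted p under 0.05. Of those that fell, 34 were over 10 times higher in the other nuclei, and all 13 mitochondrial genes fell. Many ribosomal protein genes fell too, among them Rps29, Rpl13, Rplp0 and Rps23, and none rose. They formed no list here, and their part in the falls was not tested. The count was 110 without Bleo_NVP 1, 247 without Bleo_NVP 2, 94 without Bleo_NVP 3 and 203 without Bleo_vehicle 2. It was 668 without Bleo_vehicle 1. Both comparisons use the same 3 Bleo_vehicle libraries, so the values of a gene in them are not independent and are set side by side below.

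Genes of alveolar fibroblast identity were the first group examined. Of 24 tested, 1 fell (4.17%, against 2.56% of all genes called) and none rose in Bleo_vehicle against PBS_vehicle, with a median log2 fold change of -0.64. In Bleo_NVP against Bleo_vehicle 6 rose (Limch1, Col13a1, Meox2, Fgf10, Npnt and Gpc3), none fell, and the median was 0.69. That is 25% of the list, against 7.71% of all genes called. The 2 shares over all genes stand beside every list below. The genes that chose the nuclei are not in these counts.

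Npnt (GRCm38 chromosome 3, 132881745 to 132950291) changed in both comparisons. Its level was 1209, 1262 and 2106 CPM in PBS_vehicle 1, 2 and 3, 1075, 1260.1 and 2078 CPM in PBS_NVP, 544, 433 and 686 CPM in Bleo_vehicle and 2184, 1146 and 2036 CPM in Bleo_NVP. Every Bleo_vehicle library lay below every other library. The level was 2.75 times higher in PBS_vehicle than in Bleo_vehicle (log2 fold change -1.46, SE 0.33, adjusted p = 0.0341) and 3.23 times higher in Bleo_NVP than in Bleo_vehicle (log2 fold change 1.69, SE 0.33, adjusted p = 0.013).

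Fgf10, the growth factor of the alveolar niche, stood at 212, 194 and 384 CPM in Bleo_vehicle, 349.8, 446 and 726 CPM in PBS_vehicle and 732, 493 and 748 CPM in Bleo_NVP. Bleo_vehicle 3 lay above PBS_vehicle 1, whereas no Bleo_NVP library overlapped Bleo_vehicle. It rose in Bleo_NVP against Bleo_vehicle (log2 fold change 1.30, SE 0.36, adjusted p = 0.0458). Meox2, a homeobox transcription factor, stood at 446 ± 35.1 CPM in Bleo_vehicle and 880.2 ± 168 CPM in Bleo_NVP (mean and SD, n = 3), and rose in that comparison (log2 fold change 0.98, SE 0.24, adjusted p = 0.0284). Gpc3, a heparan sulphate proteoglycan that binds growth factors, stood at 135, 124 and 375 CPM in Bleo_vehicle, 311, 665 and 872 CPM in PBS_vehicle and 955, 634 and 971 CPM in Bleo_NVP. Bleo_vehicle 3 again lay above PBS_vehicle 1, and Gpc3 rose in Bleo_NVP (log2 fold change 1.97, SE 0.51, adjusted p = 0.04). Tcf21 stood at 15, 25.8 and 43.9 CPM in Bleo_vehicle, 44.9, 59.2 and 48.8 CPM in PBS_vehicle and 60.7, 49.5 and 43.8 CPM in Bleo_NVP, with a log2 fold change of -0.67 (SE 0.29, adjusted p = 0.235) after bleomycin and 0.68 (SE 0.30, adjusted p = 0.179) between Bleo_NVP and Bleo_vehicle. The latter passed without Bleo_vehicle 3 (1.18, adjusted p = 0.0415) and under no other alternative. Only Bleo_vehicle 1 and 2 lay below all libraries of the other groups.

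Calls in this list rested on few libraries. Npnt did not pass after bleomycin without PBS_vehicle 2 or 3, Bleo_vehicle 1 or 2 or Bleo_NVP 3 (adjusted p = 0.0532 to 0.136). Among the rises in Bleo_NVP, at least 1 of Npnt, Fgf10, Meox2 and Gpc3 did not pass without PBS_vehicle 2, PBS_NVP 2, Bleo_vehicle 1 or 2 or Bleo_NVP 1, 2 or 3 (adjusted p = 0.0505 to 0.153). No member was called in that comparison without Bleo_NVP 1, without Bleo_NVP 3 or without Bleo_vehicle 2, while the median log2 fold change was 0.62, 0.74 and 0.59. With the 1602 nuclei (21.4%) left out that held specific markers of other classes, 1 member rose and 1 fell after bleomycin (median -0.40), and 1 rose and 1 fell in Bleo_NVP (median 0.44).

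Scn3a, Gsg1l and Chst8, named for the size of their changes and members of no list, fell after bleomycin and rose in Bleo_NVP. No overlap between the 2 groups compared was a condition of this naming, and 22.3% and 31.0% of all genes tested met it. Scn3a (GRCm38 chromosome 2, 65457118 to 65567627), a voltage-gated sodium channel, stood at 621, 557 and 692 CPM in PBS_vehicle, 581, 625 and 726 CPM in PBS_NVP, 97.4, 104 and 203 CPM in Bleo_vehicle and 742, 598 and 779 CPM in Bleo_NVP. The lowest of the 9 other libraries lay above 2 times the highest Bleo_vehicle value. It was 4.62 times higher in PBS_vehicle than in Bleo_vehicle (log2 fold change -2.16, SE 0.25, adjusted p = 0.000528) and 5.24 times higher in Bleo_NVP (log2 fold change 2.34, SE 0.26, adjusted p = 0.000292). Both calls passed whichever library was left out, and without the nuclei that held specific markers of other classes.

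Gsg1l, an auxiliary subunit of AMPA receptors, stood at 2.5, 2.23 and 5.67 CPM in Bleo_vehicle, 17, 62.6 and 73.6 CPM in PBS_vehicle, 22.3, 62.8 and 58.5 CPM in PBS_NVP and 60.7, 69.7 and 64 CPM in Bleo_NVP. The number 1 libraries of the PBS groups were the lowest of the rest, and none overlapped Bleo_vehicle, which for PBS_vehicle and Bleo_NVP the naming required. It fell after bleomycin (log2 fold change -3.48, SE 0.64, adjusted p = 0.02) and rose in Bleo_NVP (log2 fold change 3.87, SE 0.65, adjusted p = 0.00957). Chst8, a sulphotransferase, stood at 30, 32.5 and 36 CPM in Bleo_vehicle, 76.7, 174 and 169 CPM in PBS_vehicle and 190.1, 169 and 164 CPM in Bleo_NVP, and moved in the same directions (log2 fold change -2.03, SE 0.35, adjusted p = 0.0135, and log2 fold change 2.37, SE 0.36, adjusted p = 0.00535). Slc22a3, an organic cation transporter, stood at 4.99, 14.7 and 29.9 CPM in Bleo_vehicle and 112, 83.3 and 99.4 CPM in Bleo_NVP, and rose between them (log2 fold change 2.24, SE 0.40, adjusted p = 0.0107). Fat3 stood at 483 ± 144 CPM in Bleo_vehicle and 1889 ± 864 CPM in PBS_vehicle (mean and SD, n = 3) and fell after bleomycin (log2 fold change -1.95, SE 0.42, adjusted p = 0.0339). The falls after bleomycin of at least 1 of Gsg1l, Chst8 and Fat3 did not pass without PBS_vehicle 2 or 3, Bleo_vehicle 1, 2 or 3 or Bleo_NVP 1 or 3 (adjusted p = 0.0512 to 0.118). The rises of Gsg1l, Chst8 and Slc22a3 in Bleo_NVP passed whichever library was left out.

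**Figure D3:**
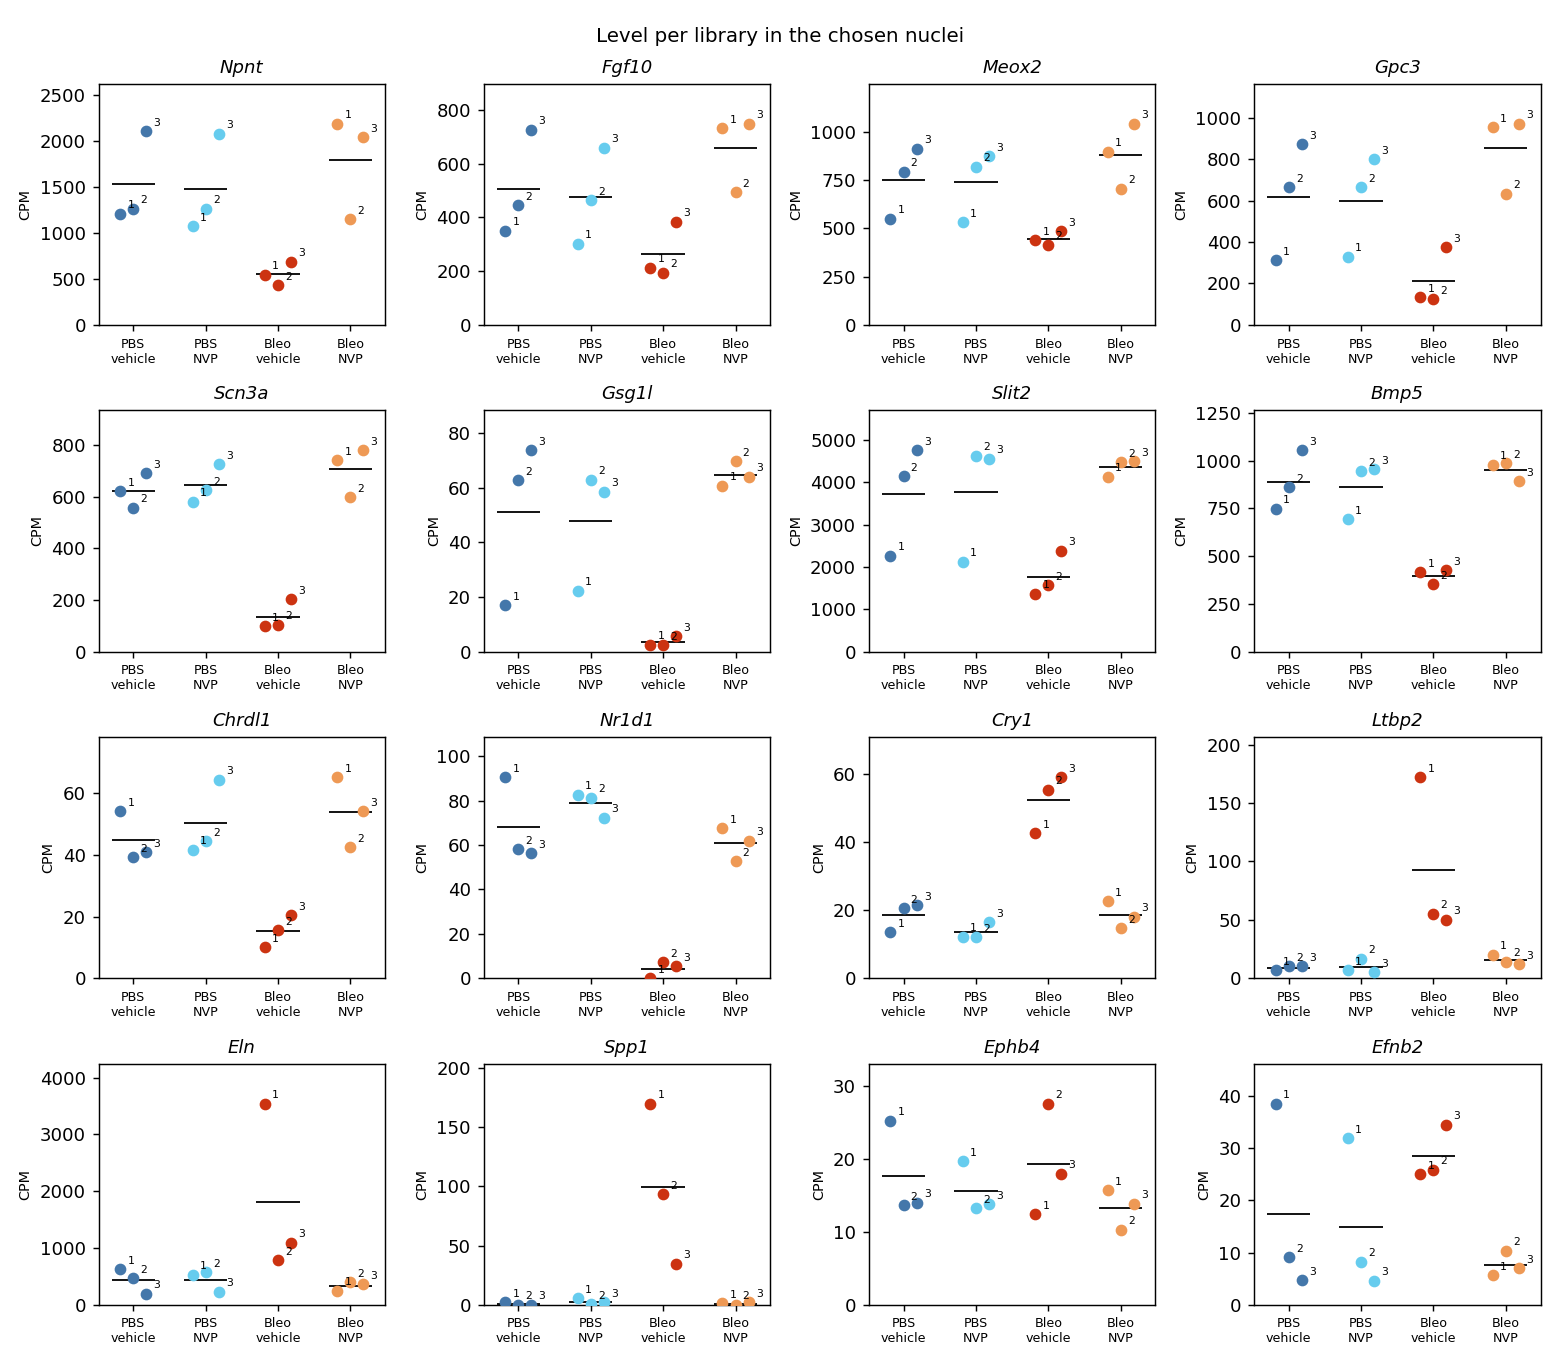
Levels of 16 genes in the chosen nuclei of 12 mice, in CPM on linear axes from 0, by group. Points are mice with their replicate number and lines are group means. Npnt, Scn3a, Gsg1l and Bmp5 are lowest in the 3 Bleo_vehicle libraries, Cry1, Ltbp2, Eln and Spp1 are highest there, and Ephb4 overlaps in all groups.

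Niche and BMP signalling genes moved in both directions. Of 19 BMP pathway genes tested, 2 fell after bleomycin and none rose (median log2 fold change 0.09). In Bleo_NVP against Bleo_vehicle 4 rose and 2 fell (median -0.28). Bmp5, a BMP ligand, stood at 417, 352 and 426 CPM in Bleo_vehicle, 749, 863 and 1054 CPM in PBS_vehicle, 693, 945 and 956 CPM in PBS_NVP and 979.5, 988 and 893 CPM in Bleo_NVP. All Bleo_vehicle libraries lay below all others. It fell after bleomycin (log2 fold change -1.16, SE 0.19, adjusted p = 0.00694) and rose in Bleo_NVP (log2 fold change 1.26, SE 0.19, adjusted p = 0.00319).

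Chrdl1, a secreted BMP antagonist, stood at 9.99, 15.6 and 20.5 CPM in Bleo_vehicle, 54.2, 39.3 and 40.8 CPM in PBS_vehicle and 65.2, 42.5 and 54.2 CPM in Bleo_NVP, again with no overlap. It fell (log2 fold change -1.40, SE 0.26, adjusted p = 0.0151) and rose (log2 fold change 1.64, SE 0.27, adjusted p = 0.00615) in the same comparisons, the fall not passing without Bleo_vehicle 2 (adjusted p = 0.082). Id1, a transcriptional target of BMP receptors, moved the other way and fell in Bleo_NVP from 12.1 ± 2.46 to 3 ± 0.656 CPM (log2 fold change -1.88, SE 0.53, adjusted p = 0.0447), as did Bmp1, the procollagen C-proteinase and no BMP ligand, from 57.9 ± 19 to 18.2 ± 6.02 CPM (log2 fold change -1.61, SE 0.32, adjusted p = 0.0137). At least 1 of these last calls did not pass without PBS_vehicle 2, PBS_NVP 2, Bleo_vehicle 1, 2 or 3 or Bleo_NVP 1, 2 or 3 (adjusted p = 0.053 to 0.134).

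Of 31 niche signal genes, 2 rose after bleomycin (Sema3e and Sema3a) and none fell (median log2 fold change 0.19), and in Bleo_NVP 3 rose and 3 fell (median -0.27). Slit2, a guidance cue that binds ROBO receptors, was among the most abundant, at 1363, 1571 and 2383 CPM in Bleo_vehicle, 2264, 4147 and 4755 CPM in PBS_vehicle, 2122, 4634 and 4560.2 CPM in PBS_NVP and 4135, 4476 and 4508 CPM in Bleo_NVP. Bleo_vehicle 3 exceeded PBS_vehicle 1 and PBS_NVP 1, and no Bleo_NVP library overlapped Bleo_vehicle. Slit2 rose in Bleo_NVP (log2 fold change 1.30, SE 0.34, adjusted p = 0.0349). Wnt5a, a non-canonical Wnt ligand, fell from 22.5 ± 10.8 to 5.85 ± 2.22 CPM (log2 fold change -1.71, SE 0.43, adjusted p = 0.0335). Sema3e, a semaphorin that signals to plexin D1 on endothelium, stood at 32.5, 60.6 and 85.5 CPM in Bleo_vehicle and 19.6, 26.2 and 29.4 CPM in PBS_vehicle and rose after bleomycin (log2 fold change 1.37, SE 0.31, adjusted p = 0.0371). Its mean in the other nuclei was 976 CPM in Bleo_vehicle, far above that in the chosen ones. At least 1 of the calls of Slit2 and Wnt5a in Bleo_NVP did not pass without Bleo_vehicle 1 or 2 or Bleo_NVP 1, 2 or 3 (adjusted p = 0.0523 to 0.117), and that of Sema3e after bleomycin did not pass without PBS_vehicle 1, 2 or 3, Bleo_vehicle 2 or 3 or Bleo_NVP 1 or 2 (adjusted p = 0.0525 to 0.119).

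Activated fibroblast genes had the highest share of calls among the 16 lists, which do not include the marker lists of cell classes. Of 22 tested, 6 rose after bleomycin (Sulf1, Runx1, Ltbp2, Tgfbi, Spp1 and Chl1) and none fell, with a median log2 fold change of 1.76. In Bleo_NVP against Bleo_vehicle 7 fell (the same 6 and Sfrp1) and none rose, with a median of -2.01. Some marker lists of other classes had a higher share of falls there. These were 7 of 10 type II alveolar, 3 of 5 interstitial macrophage or monocyte and 4 of 10 type I alveolar genes tested. None of 9 capillary endothelial genes was called. After bleomycin, 1 type II alveolar, 1 interstitial macrophage or monocyte and 2 type I alveolar genes rose. Chl1 and Spp1, low in nearly all other libraries, met the low-count filter through Bleo_vehicle, where they were high. Genes that enter in this way tilt the counts and medians of the list, and the size of this was not tested. Spp1 (osteopontin) stood at 169.8, 93.1 and 34.8 CPM in Bleo_vehicle, 1.96, 0 and 0 CPM in PBS_vehicle, 5.69, 0.459 and 1.97 CPM in PBS_NVP and 1.12, 0 and 2.09 CPM in Bleo_NVP. Bleo_vehicle was the only group with a library above 5.69 CPM. Spp1 rose after bleomycin (log2 fold change 6.28, SE 0.93, adjusted p = 0.00715) and fell in Bleo_NVP (log2 fold change -6.51, SE 1.06, adjusted p = 0.00899). Macrophages also make it, and its mean in the other nuclei moved too, from 6.54 CPM in PBS_vehicle to 229 CPM in Bleo_vehicle.

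Ltbp2 (GRCm38 chromosome 12, 84783212 to 84876532), an elastic fibre glycoprotein, stood at 172, 55.2 and 50.1 CPM in Bleo_vehicle, 6.69, 10.2 and 10 CPM in PBS_vehicle, 6.95, 16.5 and 5.26 CPM in PBS_NVP and 20.2, 14.2 and 11.8 CPM in Bleo_NVP. All Bleo_vehicle libraries lay above all others. It was 10.3 times higher after bleomycin (log2 fold change 3.28, SE 0.53, adjusted p = 0.00933) and 6.01 times higher in Bleo_vehicle than in Bleo_NVP (log2 fold change -2.48, SE 0.52, adjusted p = 0.0203). Chl1, a cell adhesion molecule, stood at 452, 79.3 and 35.2 CPM in Bleo_vehicle and at most at 2.63 CPM in any other library. It rose (log2 fold change 7.96, SE 1.23, adjusted p = 0.0114) and fell (log2 fold change -6.65, SE 1.19, adjusted p = 0.0143), and its mean in Bleo_vehicle was mostly library 1. Tgfbi, a TGF-beta-induced matrix protein, stood at 119.8, 33.4 and 13.4 CPM in Bleo_vehicle and at most at 6.26 CPM elsewhere, with 49.0 CPM over all other nuclei together (log2 fold change 3.90, SE 0.86, adjusted p = 0.0373, and log2 fold change -4.99, SE 1.05, adjusted p = 0.0205).

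After bleomycin, Spp1 and Ltbp2 passed whichever library was left out, and at least 1 of Chl1 and Tgfbi did not pass without PBS_vehicle 2 or 3, PBS_NVP 3, Bleo_vehicle 2 or Bleo_NVP 1, 2 or 3 (adjusted p = 0.0534 to 0.14). In Bleo_NVP against Bleo_vehicle Spp1 passed throughout, and at least 1 of Ltbp2, Chl1 and Tgfbi did not pass without Bleo_NVP 1, 2 or 3 (adjusted p = 0.0595 to 0.0952). Without any 1 of the 3 Bleo_NVP libraries, 1 member of the list was still called. The median after bleomycin was 1.11 without Bleo_vehicle 1 and 2.67 without Bleo_vehicle 3. Without the nuclei that held specific markers of other classes, 3 of 19 tested rose after bleomycin (median log2 fold change 1.48) and 4 fell in Bleo_NVP (median -1.38), Spp1 and Ltbp2 among them in both.

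Of 18 inflammatory genes tested, 2 rose after bleomycin (Hp and Lcn2) and none fell (median log2 fold change 0.47), and 3 fell in Bleo_NVP (Lcn2, Hp and C3) and none rose (median -0.37). Lcn2 (lipocalin 2, an acute-phase iron-siderophore carrier) stood at 15, 18.7 and 11.3 CPM in Bleo_vehicle and 0.816, 0 and 0 CPM in PBS_vehicle (log2 fold change 4.83, SE 0.73, adjusted p = 0.00713), a call that did not pass without Bleo_vehicle 2 (adjusted p = 0.0503). No UMI of Lcn2 was found in the chosen nuclei of Bleo_NVP, against 175 in Bleo_vehicle, so it was at least 19.4-fold higher in Bleo_vehicle when 3 UMIs are allowed over the Bleo_NVP group (adjusted p = 0.00582). Lcn2 could thus have met the low-count filter through Bleo_vehicle, where it was high. Such entry tilts the counts of this list, and the size of this was not tested. Hp (haptoglobin) stood at 25, 22.7 and 25.9 CPM in Bleo_vehicle, 2.77, 4.55 and 6.02 CPM in PBS_vehicle and 2.25, 3.81 and 2.09 CPM in Bleo_NVP, with Bleo_vehicle above all of these. It rose (log2 fold change 2.57, SE 0.47, adjusted p = 0.0135) and fell (log2 fold change -3.10, SE 0.53, adjusted p = 0.00744), and did not pass without PBS_vehicle 2 or Bleo_vehicle 2 (adjusted p = 0.0503 to 0.0595) in the former comparison or without Bleo_NVP 3 (adjusted p = 0.051) in the latter. C3, complement component 3, fell from 28 ± 4.17 to 8.42 ± 3.24 CPM (log2 fold change -1.65, SE 0.37, adjusted p = 0.0215), and did not pass without Bleo_vehicle 3 or Bleo_NVP 1 or 3 (adjusted p = 0.0547 to 0.0971).

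Collagens of the interstitium did not separate the groups in the chosen nuclei. The choosing rule bears on this, as Cthrc1 and Postn are among the 11 genes that count against a nucleus. Nuclei that met the threshold on the 7 genes but not this condition numbered 7, 101 and 209 in Bleo_vehicle 1, 2 and 3. They numbered 1 to 105 in the other libraries. What leaving them out did to collagen levels was not tested. None of 16 tested was called in either comparison, with medians of 0.27 and -0.26 on the log2 scale, and the median after bleomycin was -0.15 without Bleo_vehicle 1. Col3a1, a fibrillar collagen, stood at 1098, 434 and 423 CPM in Bleo_vehicle, 388, 606 and 322 CPM in PBS_vehicle and 348, 447 and 293 CPM in Bleo_NVP. Bleo_vehicle 1 was the highest of all and the other Bleo_vehicle libraries lay within the range of PBS_vehicle. Its log2 fold change was 0.55 (SE 0.37, adjusted p = 0.5) after bleomycin and -0.82 (SE 0.37, adjusted p = 0.202) in Bleo_NVP. Col5a2, a minor fibrillar collagen, showed the same single high library, at 1463, 497 and 545 CPM in Bleo_vehicle against 580.1, 709 and 568 CPM in PBS_vehicle.

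Elastic fibre genes split. Of 17 tested, Ltbp2 rose and Ltbp4 fell after bleomycin (median log2 fold change -0.10), and in Bleo_NVP Ltbp4 rose while Ltbp2, Eln and Loxl3 fell (median -0.05). Ltbp4, needed for elastic fibre assembly, stood at 25, 98.5 and 79 CPM in Bleo_vehicle and between 147 and 187 CPM in every other library. It fell (log2 fold change -1.22, SE 0.26, adjusted p = 0.0303) and rose (log2 fold change 1.10, SE 0.27, adjusted p = 0.0295). Eln (GRCm38 chromosome 5, 134702593 to 134747323), the gene of elastin, stood at 3539.9, 784 and 1090.3 CPM in Bleo_vehicle, 628, 468 and 195 CPM in PBS_vehicle, 529, 570.2 and 233 CPM in PBS_NVP and 245, 394 and 365 CPM in Bleo_NVP. All Bleo_vehicle libraries lay above all others, with library 1 far above the rest. The log2 fold change was 2.05 (SE 0.60, adjusted p = 0.0946) after bleomycin, which did not pass, and -2.41 (SE 0.61, adjusted p = 0.0397) in Bleo_NVP, which did. After bleomycin Eln did pass with DESeq2 (2.09, adjusted p = 0.0253), with a replicate block (2.02, adjusted p = 0.0496) and with nuclei holding markers of other classes left out (2.95, adjusted p = 3.68e-08), a choice that removes 92.5% of the chosen nuclei. Over its 24 alternatives the adjusted p ran from 3.68e-08 to 0.273. The call of Ltbp4 did not pass without PBS_vehicle 2 or 3 or Bleo_NVP 3 (adjusted p = 0.053 to 0.0968) after bleomycin or without Bleo_NVP 1, 2 or 3 (adjusted p = 0.0738 to 0.103) in Bleo_NVP, and that of Eln did not pass without PBS_vehicle 2, Bleo_vehicle 1 or Bleo_NVP 1, 2 or 3 (adjusted p = 0.0539 to 0.133).

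Basement membrane genes gave 2 falls after bleomycin of 25 tested (Npnt and Itga9, median log2 fold change -0.21), and 3 rises in Bleo_NVP (Lama4, Frem1 and Npnt, median 0.27). These are 8% and 12% of the list, against 2.56% and 7.71% of all genes called. Lama4, the laminin alpha 4 chain, stood at 292, 408 and 517 CPM in Bleo_vehicle and 759, 733 and 686 CPM in Bleo_NVP (log2 fold change 0.82, SE 0.21, adjusted p = 0.033). The 2 groups did not overlap. Frem1, an extracellular protein of the Fraser complex, rose from 104 ± 27.5 to 245 ± 60.3 CPM (log2 fold change 1.23, SE 0.32, adjusted p = 0.0388). At least 1 of these 2 calls did not pass without Bleo_vehicle 1 or 2 or Bleo_NVP 1, 2 or 3 (adjusted p = 0.0569 to 0.132), and that of Itga9 after bleomycin (log2 fold change -0.70, SE 0.17, adjusted p = 0.042) did not pass without PBS_vehicle 2 or 3, PBS_NVP 2, Bleo_vehicle 1, 2 or 3 or Bleo_NVP 1, 2 or 3 (adjusted p = 0.0533 to 0.162).

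Lipid handling genes, which give these cells their older name of lipofibroblasts, gave few calls. Of 20 tested, Scd1 rose and Lipa fell after bleomycin (median log2 fold change 0.12), and Pnpla3, Scd1 and Lrp1 fell in Bleo_NVP (median -0.19). Lipa, lysosomal acid lipase, stood at 32.5, 41.4 and 55.7 CPM in Bleo_vehicle and 77.7, 82.5 and 81.6 CPM in PBS_vehicle (log2 fold change -0.81, SE 0.20, adjusted p = 0.0449), and with nuclei thinned to 1000 UMIs its log2 fold change was 0.054. Scd1, a fatty acid desaturase that type II alveolar cells also use, stood at 9.99, 32.1 and 57.8 CPM in Bleo_vehicle, 5.55, 1.71 and 7.36 CPM in PBS_vehicle and 2.25, 2.18 and 2.78 CPM in Bleo_NVP (log2 fold change 2.91, SE 0.62, adjusted p = 0.0318, and log2 fold change -3.93, SE 0.75, adjusted p = 0.0133). Pnpla3, a lipid droplet enzyme, had 151 UMIs in Bleo_vehicle and none in Bleo_NVP, at least 16.7-fold higher in Bleo_vehicle with 3 UMIs allowed over the Bleo_NVP group (adjusted p = 0.0237). It too could have met the low-count filter through Bleo_vehicle, where it was highest. Lrp1, an endocytic receptor, fell with a log2 fold change of -0.96 (SE 0.26, adjusted p = 0.0425). After bleomycin at least 1 of Lipa and Scd1 did not pass without PBS_vehicle 2 or 3, PBS_NVP 2, Bleo_vehicle 1, 2 or 3 or Bleo_NVP 1, 2 or 3 (adjusted p = 0.0514 to 0.158). In Bleo_NVP at least 1 of Scd1, Pnpla3 and Lrp1 did not pass without PBS_vehicle 2, PBS_NVP 2, Bleo_vehicle 1, 2 or 3 or Bleo_NVP 1, 2 or 3 (adjusted p = 0.0517 to 0.148).

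**Figure D4:**
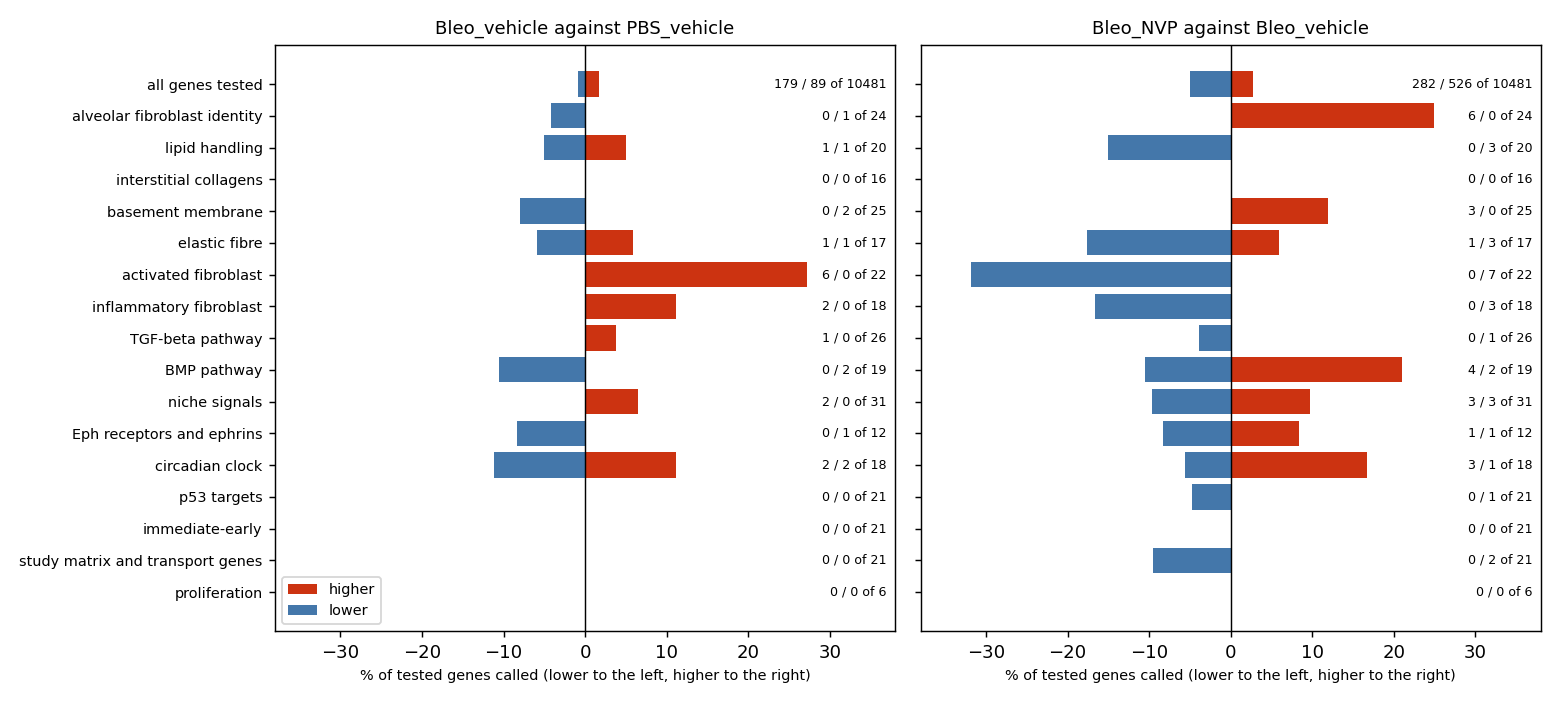
Share of the tested genes of each list, in percent, that were called higher (bars to the right) or lower (bars to the left) by edgeR at an adjusted p under 0.05 in the chosen nuclei, for Bleo_vehicle against PBS_vehicle (left) and Bleo_NVP against Bleo_vehicle (right), with the counts printed beside the bars. Of 22 activated fibroblast genes 6 rose at left and 7 fell at right, and of 24 identity genes 1 fell at left and 6 rose at right. Over all genes tested, 2.56% were called at left and 7.71% at right.

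Core clock genes were called in both directions. Of 18 tested, Nr1d1 and Dbp fell and Cry1 and Nfil3 rose after bleomycin (median log2 fold change -0.01), and Nr1d1, Dbp and Nr1d2 rose and Cry1 fell in Bleo_NVP (median -0.07). Nr1d1, the repressor REV-ERB alpha, stood at 0, 7.13 and 5.41 CPM in Bleo_vehicle, 90.6, 58 and 56.2 CPM in PBS_vehicle, 82.7, 81.2 and 72.3 CPM in PBS_NVP and 67.5, 52.8 and 61.9 CPM in Bleo_NVP. Its fall (log2 fold change -3.64, SE 0.32, adjusted p = 3.04e-05) and rise (log2 fold change 3.45, SE 0.33, adjusted p = 7.46e-05) passed whichever library was left out. Cry1, a repressor of the positive arm of the clock, stood at 42.4, 55.2 and 58.9 CPM in Bleo_vehicle, 13.5, 20.5 and 21.4 CPM in PBS_vehicle and 22.5, 14.7 and 18.1 CPM in Bleo_NVP, all Bleo_vehicle libraries above all others (log2 fold change 1.58, SE 0.25, adjusted p = 0.00508, and log2 fold change -1.57, SE 0.26, adjusted p = 0.00582). Nfil3, a repressor of D-box genes, stood at 20, 7.57 and 5.58 CPM in Bleo_vehicle and at most at 4.59 CPM elsewhere (log2 fold change 3.42, SE 0.84, adjusted p = 0.047), and did not pass without PBS_vehicle 2 or 3, PBS_NVP 2, Bleo_vehicle 1 or 2 or Bleo_NVP 1, 2 or 3 (adjusted p = 0.0559 to 0.144). The fall of Dbp, a D-box activator, after bleomycin did not pass without PBS_vehicle 3 or Bleo_vehicle 3 (adjusted p = 0.0835 to 0.0878). The hour at which lungs were taken is not given in the sources used here, so time of day and group cannot be told apart.

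EphB4, the target of the inhibitor, did not separate the groups at the RNA level. Ephb4 (GRCm38 chromosome 5, 137350109 to 137378669) stood at 25.3, 13.7 and 14 CPM in PBS_vehicle, 19.7, 13.3 and 13.8 CPM in PBS_NVP, 12.5, 27.6 and 18 CPM in Bleo_vehicle and 15.7, 10.3 and 13.9 CPM in Bleo_NVP. All 12 libraries lay within 10.3 to 27.6 CPM, and no group stood apart from the others. Its log2 fold change was 0.16 (SE 0.33, adjusted p = 0.887) after bleomycin, -0.65 (SE 0.35, adjusted p = 0.277) in Bleo_NVP against Bleo_vehicle and -0.20 (SE 0.32, adjusted p = 1) in PBS_NVP against PBS_vehicle. The other nuclei held more of it, 39.8 CPM over all libraries against 19.5 CPM in the chosen ones.

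Efnb2, the gene of ephrin-B2, stood at 38.5, 9.11 and 4.68 CPM in PBS_vehicle, 31.9, 8.26 and 4.6 CPM in PBS_NVP, 25, 25.8 and 34.5 CPM in Bleo_vehicle and 5.62, 10.3 and 6.95 CPM in Bleo_NVP. The PBS groups each had 1 high library, number 1, and Bleo_vehicle lay above Bleo_NVP without overlap, but the log2 fold change was -1.88 (SE 0.83, adjusted p = 0.189), which passed with only the libraries compared in the fit (-1.89, adjusted p = 0.00499) and under no other alternative. Efnb2 is an endothelial gene too, and stood at 126 CPM in the other nuclei. Of 12 Eph receptor and ephrin genes tested, Epha1 fell after bleomycin (median log2 fold change 0.23), and in Bleo_NVP Epha1 rose and Epha4 fell (median -0.53). Epha1 stood at 4.99, 4.9 and 13 CPM in Bleo_vehicle, 26.9, 26.2 and 31.4 CPM in PBS_vehicle and 31.5, 17.4 and 28.5 CPM in Bleo_NVP, with Bleo_vehicle lowest throughout (log2 fold change -1.60, SE 0.34, adjusted p = 0.0288, and log2 fold change 1.45, SE 0.35, adjusted p = 0.029). The calls of Epha1 did not pass without PBS_vehicle 2 or 3 or Bleo_vehicle 2 (adjusted p = 0.0754 to 0.103) after bleomycin or without Bleo_vehicle 2 or Bleo_NVP 1 or 3 (adjusted p = 0.0958 to 0.104) in Bleo_NVP, and that of Epha4 (log2 fold change -2.18, SE 0.60, adjusted p = 0.0409) did not pass without Bleo_vehicle 1, 2 or 3 or Bleo_NVP 1, 2 or 3 (adjusted p = 0.0522 to 0.133).

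The remaining lists gave few calls. Over all genes tested, 2.56% were called after bleomycin and 7.71% in Bleo_NVP, against 3.85% of the TGF-beta pathway list in each. In Bleo_NVP, calls came to 4.76% of the p53 targets and 9.52% of the matrix and transport list. Of 26 TGF-beta pathway genes Itgb6, an epithelial integrin subunit that activates TGF-beta, rose after bleomycin (log2 fold change 2.21, SE 0.47, adjusted p = 0.0289) and fell in Bleo_NVP (log2 fold change -2.10, SE 0.50, adjusted p = 0.027), with medians of 0.04 and 0.02 for the list. Its mean in the other nuclei of Bleo_vehicle was 236 CPM against 16.5 ± 6.65 CPM in the chosen ones, and its calls did not pass without PBS_vehicle 1 or 3 or Bleo_vehicle 3 (adjusted p = 0.0558 to 0.102) after bleomycin or without Bleo_vehicle 3 or Bleo_NVP 1, 2 or 3 (adjusted p = 0.0815 to 0.0927) in Bleo_NVP. None of 21 p53 targets was called after bleomycin (median 0.30), and Pvt1 fell in Bleo_NVP (log2 fold change -2.49, SE 0.64, adjusted p = 0.0393, list median -0.29), not passing without PBS_vehicle 2, Bleo_vehicle 1, 2 or 3 or Bleo_NVP 1, 2 or 3 (adjusted p = 0.0512 to 0.132). None of 21 immediate-early genes was called in either comparison (medians -0.22 and 0.41), nor any of 6 proliferation genes tested (medians 0.52 and -0.998). Among 21 genes of matrix organization and vesicle transport, a list the study drew from lung fibroblasts of other mice, with Ephb4 deleted or intact, after bleomycin, none was called after bleomycin (median 0.03), and Eln and Tll1, a procollagen proteinase, fell in Bleo_NVP (median 0.07). Tll1 fell from 18.2 ± 5.28 to 2.49 ± 1.55 CPM (log2 fold change -2.82, SE 0.72, adjusted p = 0.0341) and did not pass without Bleo_vehicle 2 or 3 or Bleo_NVP 1, 2 or 3 (adjusted p = 0.0659 to 0.115).

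Outside the lists, Pla1a and Frmd5 rose after bleomycin, and Kirrel3 and Prune2 fell in Bleo_NVP. Pla1a, a phosphatidylserine-specific phospholipase, stood at 54.9, 17.8 and 23.2 CPM in Bleo_vehicle and 0.979, 1.71 and 2.01 CPM in PBS_vehicle (log2 fold change 4.35, SE 0.56, adjusted p = 0.0014). Frmd5, a FERM domain protein of cell junctions, stood at 69.9, 49 and 38.1 CPM in Bleo_vehicle and 4.57, 1.71 and 9.37 CPM in PBS_vehicle (log2 fold change 3.32, SE 0.49, adjusted p = 0.00384). Both calls passed whichever library was left out. The 2 groups compared stood apart for each gene, but this was a condition of naming genes outside the lists. Of all genes tested, 22.3% had no overlap between these 2 groups. Kirrel3, an adhesion molecule, stood at 861, 36.1 and 43.3 CPM in Bleo_vehicle and 2.25, 3.27 and 3.48 CPM in Bleo_NVP (log2 fold change -6.51, SE 1.62, adjusted p = 0.0392), most of it from Bleo_vehicle 1, and did not pass without PBS_vehicle 2, PBS_NVP 1 or 3 or Bleo_NVP 1, 2 or 3 (adjusted p = 0.0503 to 0.122). For Prune2 there were 2 UMIs in Bleo_NVP against 154 in Bleo_vehicle, which per UMI sequenced is a ratio of 25.6 (95% counting interval 7.07 to 211).

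The other genes with the largest changes were of mixed kinds. After bleomycin, Kif26b, a kinesin, had a log2 fold change of 4.41 (SE 0.90, adjusted p = 0.0303), Col7a1, the anchoring fibril collagen, one of 3.80 (SE 0.91, adjusted p = 0.0495), and Cd300lf, a receptor of myeloid cells, one of 3.30 (SE 0.68, adjusted p = 0.0292). Pgm5, a phosphoglucomutase relative of adherens junctions, had one of -1.87 (SE 0.42, adjusted p = 0.0421) and Zmat4, a zinc finger gene, one of -1.73 (SE 0.38, adjusted p = 0.0303). In Bleo_NVP, Inpp4b, a phosphoinositide phosphatase, had one of 2.48 (SE 0.57, adjusted p = 0.029) and Mtss1l, an actin-regulating membrane protein, one of 2.27 (SE 0.50, adjusted p = 0.0229). Among the falls there, Chst11, a chondroitin sulphotransferase, had one of -5.29 (SE 1.13, adjusted p = 0.026), Ctss, the macrophage-rich protease cathepsin S, one of -5.06 (SE 1.13, adjusted p = 0.027) and Pdgfc, a growth factor, one of -4.92 (SE 1.19, adjusted p = 0.0341). At least 1 of the first 5 did not pass without PBS_vehicle 2 or 3, PBS_NVP 2 or 3, Bleo_vehicle 1 or 2 or Bleo_NVP 1, 2 or 3 (adjusted p = 0.0502 to 0.159), and at least 1 of the other 5 did not pass without Bleo_vehicle 1, 2 or 3 or Bleo_NVP 1, 2 or 3 (adjusted p = 0.0504 to 0.118).

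Genes whose change was particular to alveolar fibroblast nuclei were sought by testing the change in them against the change in all other nuclei of the same libraries. The other nuclei are a mix whose make-up differs between libraries, so a difference can come from either side. Of 13941 genes tested, 3.74% (521) differed in this way between Bleo_vehicle and PBS_vehicle, with 295 higher and 226 lower in the chosen nuclei, and 6.99% (974) between Bleo_NVP and Bleo_vehicle, with 351 higher and 623 lower. The first count was 817 without PBS_vehicle 1, 169 without PBS_vehicle 2, 144 without PBS_vehicle 3, 852 without PBS_NVP 1 and 97 without Bleo_vehicle 2. The second was 298, 436 and 351 without Bleo_NVP 1, 2 and 3 and 234 without Bleo_vehicle 2.

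Gsg1l, Chst8, Fat3, Chrdl1 and Ltbp4 fell by more in these nuclei than in the rest. The difference in log2 fold change after bleomycin was -2.67 (SE 0.46, adjusted p = 0.00775) for Gsg1l, -2.19 (SE 0.37, adjusted p = 0.00946) for Chst8, -1.97 (SE 0.34, adjusted p = 0.013) for Fat3, -1.92 (SE 0.38, adjusted p = 0.0147) for Chrdl1 and -1.25 (SE 0.25, adjusted p = 0.0145) for Ltbp4. In Bleo_NVP it was 3.28 (SE 0.50, adjusted p = 0.00273) for Gsg1l, 2.42 (SE 0.39, adjusted p = 0.00488) for Chst8, 1.96 (SE 0.48, adjusted p = 0.0384) for Scn3a and 0.68 (SE 0.20, adjusted p = 0.0472) for Bmp5. Scn3a after bleomycin, at -1.47 (SE 0.47, adjusted p = 0.118), did not pass.

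Levels of clock genes also differed between groups in the other nuclei, where they were not tested on their own. Nr1d1 stood at 27.8 CPM in the other nuclei of PBS_vehicle and 4.31 CPM in those of Bleo_vehicle, and its difference was -0.40 (SE 0.49, adjusted p = 0.784) after bleomycin and 0.24 (SE 0.51, adjusted p = 0.872) in Bleo_NVP. For Cry1 the differences were 0.08 (SE 0.31, adjusted p = 0.977) and -0.12 (SE 0.34, adjusted p = 0.916), and for Dbp -0.39 (SE 0.50, adjusted p = 0.802) and -0.08 (SE 0.48, adjusted p = 0.973). None of these passed, which does not show that the changes were equal. For Eln the differences were 0.33 (SE 0.43, adjusted p = 0.81) and -0.14 (SE 0.44, adjusted p = 0.922), and for Spp1 1.75 (SE 0.62, adjusted p = 0.142) and -1.23 (SE 0.91, adjusted p = 0.488), and these did not pass either.

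Some collagens changed differently in the chosen nuclei and in the rest. Col1a1, a chain of type I collagen, had a mean of 56.4 CPM in the chosen nuclei of PBS_vehicle and 78.4 CPM in those of Bleo_vehicle, while in the other nuclei it was 10.8 and 53.02 CPM. Its difference was -1.82 after bleomycin (SE 0.32, adjusted p = 0.00849) and 1.95 in Bleo_NVP (SE 0.34, adjusted p = 0.00538). Col1a2, Col6a1 and Col6a2 were also lower by difference after bleomycin, and 8 of the 16 collagens tested were higher by difference in Bleo_NVP, with none lower. Of the activated fibroblast genes, 2 were higher by difference after bleomycin and 3 lower. Higher were Chl1 (3.51) and Runx1 (2.34), and lower were Fn1 (-1.88), Tnc (-3.10) and Tagln (-1.76). Runx1 went from 50.9 to 350 CPM in the chosen nuclei and stood at 453 and 452 CPM in the others. In Bleo_NVP 3 of the list were higher and 3 lower by difference. Of the identity genes, 6 were lower by difference after bleomycin, among them Spon1, Pdgfra and Cdh11, with differences of -1.81, -1.81 and -1.42 after bleomycin. Spon1, for one, stayed at a mean of 1950.4 CPM in PBS_vehicle and 2026 CPM in Bleo_vehicle in the chosen nuclei and went from 60.0 to 239 CPM in the others, where nuclei of like kind that missed the threshold are also counted.

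**Figure D5:**
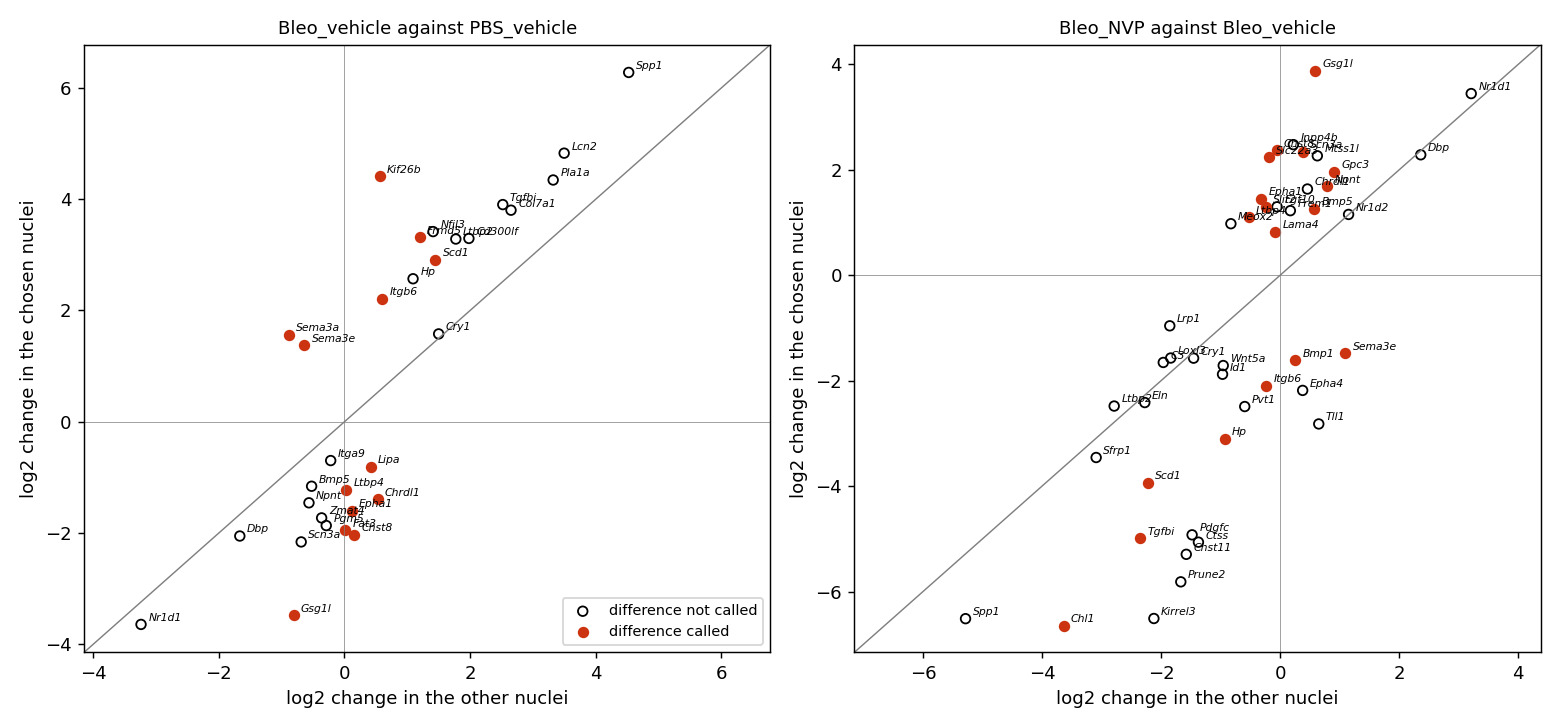
Log2 fold change of named genes called in the chosen nuclei (vertical) against that in all other nuclei of the same libraries (horizontal, the change in the chosen nuclei less the tested difference), for Bleo_vehicle against PBS_vehicle (left) and Bleo_NVP against Bleo_vehicle (right). Points are genes, filled where the difference was called, and the diagonal marks equal change. Chl1 at left and Lcn2 and Pnpla3 at right are not drawn. Nr1d1 lies near the diagonal in both panels, and Gsg1l lies far from it.

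NVP-BHG712 in PBS-treated lungs moved no gene past the threshold in these nuclei. PBS_NVP against PBS_vehicle gave 0 of 10481 genes, 0% (edgeR, 69 at an unadjusted p under 0.05; DESeq2, 0 and 46). Among the PBS libraries, where same-numbered libraries deviated together, a fit with that number as a block called 0 by edgeR and 483 had an unadjusted p under 0.05. Npnt had a log2 fold change of -0.05 (SE 0.32, adjusted p = 1), Eln of 0.04 (SE 0.58, adjusted p = 1) and Tcf21 of 0.25 (SE 0.28, adjusted p = 1). Against the other nuclei, 1 of 13941 genes (0.00717%) differed, and was named after its values were seen. This was Galntl6, a glycosyltransferase gene, at 1.47, 1.14 and 2.68 CPM in PBS_vehicle and 10.1, 6.42 and 13.8 CPM in PBS_NVP (difference 2.91, SE 0.39, adjusted p = 0.0255). In the other nuclei it was higher, at 29.9, 87.8 and 76.0 CPM in PBS_vehicle and 38.4, 35.7 and 48.7 CPM in PBS_NVP. The difference therefore also holds their levels, which were lower in PBS_NVP 2 and 3 than in PBS_vehicle 2 and 3. This call was lost without PBS_vehicle 2, PBS_vehicle 3, PBS_NVP 3 or Bleo_NVP 1.

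Bleo_NVP and PBS_NVP did not separate past the threshold either. Of the 10481 genes 0, or 0%, were called (edgeR, 396 at an unadjusted p under 0.05; DESeq2, 0 and 262). Npnt had a log2 fold change of 0.28 (SE 0.32, adjusted p = 0.97), Eln of -0.41 (SE 0.58, adjusted p = 0.979), Ephb4 of -0.29 (SE 0.35, adjusted p = 0.973) and Efnb2 of -1.07 (SE 0.82, adjusted p = 0.967). A p that misses the threshold does not show that these groups were alike.

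The change with NVP-BHG712 differed between bleomycin- and PBS-treated lungs for 35 genes, 0.334% of those tested, by the interaction term of the edgeR fit. Of these, 6 had a positive and 29 a negative term, and 11 of the 29 were mitochondrial. Scn3a had a term of 2.29 (SE 0.35, adjusted p = 0.00984) and Nr1d1 one of 3.26 (SE 0.41, adjusted p = 0.00217), both passing whichever library was left out. The count was 556 without PBS_vehicle 1, 101 without Bleo_vehicle 1, 94 without Bleo_vehicle 3 and 79 without PBS_NVP 3. It was 12 without PBS_NVP 1, 13 without Bleo_vehicle 2, 15 without PBS_vehicle 2, Bleo_NVP 1 or Bleo_NVP 2, 17 without Bleo_NVP 3 and 19 without PBS_vehicle 3.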

How the data were processed

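Nuclei from 12 mouse lungs, 1 library per mouse, were profiled with 10x Genomics 3' chemistry. The authors aligned reads to mm10 with Cell Ranger (version 7.0 in the submitters' processing notes; the file headers name a later release) and deposited raw UMI counts per gene and barcode, before the doublet and ambient RNA steps of the study's methods, neither of which was repeated here. Free RNA and doublets therefore remain in the counts. Of 49163 barcodes (184940649 UMIs in all), 13 had under 200 genes, 96 over 6000 genes and 1739 over 5% mitochondrial UMIs, and 47319 passed. Groups came from the sample titles. The members and gene lists were chosen with earlier results of these data known.

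UMI counts of the chosen nuclei were summed per library and fitted in edgeR 4.0.16 (R 4.3.3) with filterByExpr, TMM factors, 1 mean per group over all 12 libraries, robust quasi-likelihood tests and Benjamini-Hochberg adjustment over 10481 genes. The 18 choosing genes were not tested. The filter keeps a gene that reaches its count level in as many libraries as a group holds. Genes high in a single group, such as Bleo_vehicle, could therefore enter through that group. Differences from the other nuclei came from the 24 sums of chosen and other nuclei with the library as a block. Shares were compared by exact permutation. DESeq2 1.42.0, numpy 2.4.6, pandas 2.3.3, scipy 1.17.1, scanpy 1.11.5 and matplotlib 3.10.9 were used for alternatives, tables and plots. Doublet scores served only as an alternative. Gene positions are from GENCODE M21 on GRCm38.

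Named genes were called genes with a mean of at least 10 CPM, no overlap between groups and at most 10 times the level in the other nuclei, the 8 largest rises and falls for each bleomycin comparison with vehicle and 3 elsewhere, leaving out mitochondrial and unnamed loci. To these were added up to 4 called members of each list with the largest change, or the 2 most abundant where none was called, and Ephb4, Efnb2, Eln, Tcf21 and Npnt. Not all genes of the rule are described in the text.

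Same-numbered PBS_NVP and PBS_vehicle libraries deviated from their group means together (r = 0.75, 0.41 and 0.40 over 10481 genes), so the numbers were taken to pair them. On counts simulated from the fit of all 12 libraries, 36 of 100 genes changed 2-fold and 96 of 100 changed 4-fold were recovered, with 7 false calls among 10670 genes. The simulation gave all genes the same dispersion, changed only genes with a mean of at least 10 CPM, and held no run or same-number effect. Its figures are for that setting and need not hold for these libraries. Intervals and limits on UMIs cover counting error only. The labels give 1 mouse per library, so p-values measure the spread between mice, confounded with run where stated.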

Additional observations from a re-analysis of the deposited data

Results flagged for a closer look

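For 6 named genes the change with NVP-BHG712 differed between bleomycin- and PBS-treated lungs, by the interaction term of the edgeR fit in log2 units. Nr1d1 had a term of 3.26 (SE 0.41, adjusted p = 0.00217), Scn3a one of 2.29 (SE 0.35, adjusted p = 0.00984) and the sodium-calcium exchanger gene Slc24a3 one of 2.03 (SE 0.35, adjusted p = 0.0277). Terms were negative for Fth1, the ferritin heavy chain (-3.21, SE 0.52, adjusted p = 0.0185), Sorcs2, a sorting receptor (-3.28, SE 0.61, adjusted p = 0.0396), and Frmd5 (-4.34, SE 0.81, adjusted p = 0.0411). Nr1d1 and Scn3a passed whichever library was left out. Slc24a3 did not pass without 7 of the 12 libraries in turn (PBS_vehicle 2 or 3, PBS_NVP 1, Bleo_NVP 1, 2 or 3, or Bleo_vehicle 2; adjusted p = 0.058 to 0.11). Frmd5 did not pass without 6 (PBS_vehicle 2, PBS_NVP 1, Bleo_NVP 1, 2 or 3, or Bleo_vehicle 2; adjusted p = 0.0747 to 0.207). Sorcs2 did not pass without 6 (PBS_vehicle 2 or 3, PBS_NVP 1, Bleo_NVP 1 or 3, or Bleo_vehicle 2; adjusted p = 0.0784 to 0.153). Fth1 did not pass without 4 (PBS_NVP 1, Bleo_NVP 2 or 3, or Bleo_vehicle 2; adjusted p = 0.055 to 0.07). Run cannot be told apart from group in these terms.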

How the results depend on the processing

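Counts of calls changed with the test, with which nuclei were kept and with single libraries, and the cause was not tested. The genes called in Bleo_vehicle against PBS_vehicle (268) came to 670 with DESeq2, 501 with no filter on low counts, 1030 with a replicate block and 69 with only the libraries compared. They came to 99 with nuclei limited to 500 or more UMIs and at most 1% of them mitochondrial, 78 with a stricter choosing rule, 58 with nuclei holding markers of other classes left out, 165 with nuclei holding specific markers left out (a choice made after the data were seen) and 89 with thinned nuclei. In Bleo_NVP against Bleo_vehicle (808) the counts were 1646 with the replicate block, 535 with doublets left out, and 265, 160, 89, 300 and 124 under the same 5 choices of nuclei. The interaction (35) gave 322 with DESeq2, 198 with no filter, 533 with the replicate block and 21 with the depth and mitochondrial limits. Bleo_NVP against PBS_NVP gave 1 with no filter and otherwise 0.

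Genes unlike the other nuclei numbered 1758 with no filter, 202 with doublets left out, 246 with the depth and mitochondrial limits and 58 with the stricter rule after bleomycin (521). In Bleo_NVP (974) they numbered 2111, 328, 520 and 146. In PBS_NVP (1) there were 15 with no filter and 0 with the stricter rule. With 1 library left out, the counts ran from 61 to 566, from 94 to 1155 and, for the interaction, from 12 to 556, and those unlike the other nuclei from 97 to 852, from 234 to 1362 and from 0 to 1.

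Differences in share were -1.22 points after bleomycin, 3.63 in Bleo_NVP against Bleo_vehicle and 2.29 against PBS_NVP with nuclei holding markers of other classes left out, a choice that removes 92.5% of the chosen nuclei. Of 32 named genes called after bleomycin, 516 of 711 alternative values kept direction and call, 194 lost the call and 1 reversed, Lipa at 0.054 with thinned nuclei. Of 47 in Bleo_NVP, 776 of 1048 values kept both and 272 lost the call. Named genes that were not called gained a call in 4 values after bleomycin (Eln in 3 and Pola1 in 1), in 3 in Bleo_NVP (Pola1, Efnb2 and Tcf21 in 1 each) and in 14 for the interaction (Bmp5 in 7, Npnt in 4, and Limch1, Slit2 and Eln in 1 each). For Eln the interaction term was then -3.85 (adjusted p = 3.49e-07), with nuclei holding markers of other classes left out. The replicate block rests on numbers whose libraries did not all deviate together in the comparisons with Bleo_vehicle (r from -0.10 to 0.08). Among the PBS libraries a replicate block and a run-number block each called 0, with 483 and 122 genes at an unadjusted p under 0.05.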
